A study of Zea mays with 9 samples.

Results

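In maize endosperm at 19 days after pollination (DAP), 91 nuclear gene models were near silent in every wild-type library and were counted in the endosperm of both thk1 mutant alleles. They were chosen by their CPM, a gene's count divided by the library's gene counts and scaled to a common total. A member had less than 0.2 CPM in each of the 3 WT libraries and at least 0.5 CPM in at least 5 of the 6 mutant libraries. The 91 members came from 44146 nuclear gene models counted. Another 3 identifiers were left out by name when the members were chosen, and 0 of them met the limits. The low level in WT and the higher level in the mutants are thus how the genes were picked, and every contrast with WT below describes them without a test.

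The 9 libraries held poly(A) RNA of endosperm dissected from self-pollinated, field-grown plants, with 3 biological replicates per genotype. WT was the inbred line B73. The mutants were homozygous for thk1-iso15 or thk1-iso17, and the labels place both in the B73 background. Differences in sequence or in the plants used that both mutants share cannot be told apart from an effect of thk1. The labels do not say how the alleles were made, or how many kernels or plants went into a replicate, so the spread between replicates may be partly technical.

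The endosperm of a maize kernel consists mainly of starchy storage cells, enclosed by the aleurone, a cell layer on the outside that stays alive at maturity. In thick aleurone1 (thk1) mutants this layer is several cells deep. The gene encodes NOT1, the scaffold of the CCR4-NOT complex, which shortens the poly(A) tails of messenger RNAs and takes part in their decay and in the control of transcription. In bulk RNA of a dissected tissue, fewer cells of a type and less RNA per cell cannot be told apart.

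Each member is named by its identifier in the count files. The files pair no identifier with a gene name or a product, and the gene table of a later B73 assembly matched 0 of the 91 members. No function is therefore given for any member. For the same reason neither the labelled tissue nor the targeted gene was checked here against marker genes, and no sequence is shown.

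Gene counts per library ranged from 21871601, in thk1-iso15 replicate 1, to 76651742, in thk1-iso17 replicate 1. The WT limit of 0.2 CPM stood for 4.80, 14.5 and 10.7 counts in WT replicates 1, 2 and 3. The mutant limit of 0.5 CPM stood for 10.9 to 38.3 counts. A count of 0 in a WT library allowed a level of up to 0.125, 0.0415 and 0.0560 CPM (3 counts of the library total). Such floors and all intervals below cover counting error only. Libraries thk1-iso15 replicate 3 and thk1-iso17 replicate 3 stood apart from WT in entries outside the gene counts, as given below. The number of genes that met the limits, the summed levels, the overlap with WT, the spread over the mutant libraries and the calls between the alleles are each given without them as well.

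The members were a small part of the genes that were silent in WT. Of the nuclear gene models, 21320 were under 0.2 CPM in each WT library, and 10988 of these had no count in any of the 9 libraries. Of the 10332 with a count, 0.881% were members. In 442 models 1 mutant library alone reached 0.5 CPM, in 211 models 2 libraries did, in 105 models 3 did and in 80 models 4 did. Among the members, 50 reached it in 5 mutant libraries and 41 in all 6. In the opposite direction, 4 models had at least 0.5 CPM in all 3 WT libraries and less than 0.2 CPM in each of the 6 mutant libraries. The 2 counts of 41 and 4 are not a like comparison, since the first asks for silence in 3 libraries and the second in 6.

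Among the models silent in WT, 74 reached 0.5 CPM in all 3 thk1-iso15 libraries and 90 in all 3 thk1-iso17 libraries, with 41 in all 6. Few were on in 1 allele and silent in every library of the other. All 3 thk1-iso15 libraries reached 0.5 CPM while all 3 thk1-iso17 libraries stayed below 0.2 CPM in 3 models, and the reverse held in 2 models.

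**Figure D1:**
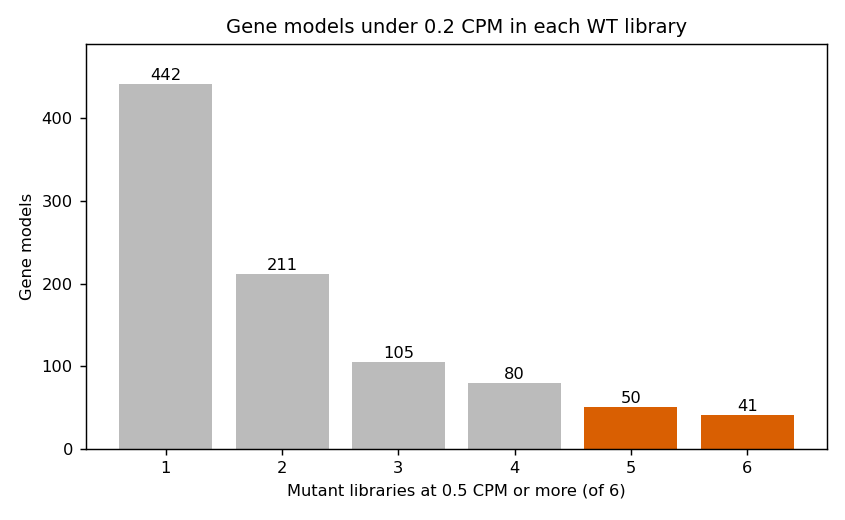
Number of gene models (vertical axis) under 0.2 CPM in each WT library, by the number of mutant libraries in which they reached 0.5 CPM (horizontal axis). The bars fall from 442 models at 1 library to 80 at 4, and the coloured bars are the members, 50 at 5 libraries and 41 at 6.

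The number of genes that met the limits moved with the limits, with the scaling and with single libraries. With CPM rescaled by TMM factors, which were 0.785 to 0.926 in WT and 0.946 to 1.21 in the mutants, 64 of the 91 still met them. Without thk1-iso15 replicate 3 the limits were met by 147 genes, without WT replicate 3 by 144 and without thk1-iso17 replicate 3 by 131, and the 91 are among these by construction. Just inside the WT limit stood Zm00001d006853, Zm00001d013311 and Zm00001d043699, each with a highest WT level of 0.194 CPM. Just outside it stood Zm00001d005051, Zm00001d008457 and Zm00001d053543, each at 0.206 CPM. At the mutant limit the level that counts is the fifth highest of the 6 libraries. It was 0.501, 0.501 and 0.502 CPM in Zm00001d024258, Zm00001d036643 and Zm00001d005161, just inside. It was 0.499, 0.496 and 0.480 CPM in Zm00001d046147, Zm00001d027569 and Zm00001d048770, just outside.

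Lists were also made with 2 replicate numbers of every genotype and read in the third. All 91 members are in each list, and they were chosen with all 9 libraries, so that the values below are a description and no support for the choice. With replicate 1 held out, 169 genes were chosen, and their median level in the held-out libraries was 0.0832 CPM in WT, 0.914 in the thk1-iso15 libraries and 0.965 in those of thk1-iso17. With replicate 2 held out, 189 genes had medians of 0.0968, 0.750 and 0.742 CPM. With replicate 3 held out, 295 genes had medians of 0.112, 0.418 and 0.561 CPM. With replicate 1 held out, both mutants lay above WT in 157 of 169 genes, beside 64.2% of the 23529 genes tested in the fit described below. The count was 177 of 189 with replicate 2 held out, beside 66.1%, and 240 of 295 with replicate 3 held out, beside 47.7%. The genes tested were not chosen for a low WT level, so these shares are not a like comparison. They are also on CPM without TMM factors, which sets the mutants higher beside WT. Of all models silent in the 2 WT libraries used, between 1.19% and 2.56% reached 0.5 CPM in a held-out mutant library.

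Across the members, WT had 0 to 25 counts per gene over its 3 libraries, with a median of 10. Over the 6 mutant libraries the members had 166 to 2536 counts, with a median of 289. No count at all was found in WT for 2 members, and at most 1 count for 7. The mutant mean ranged from 0.564 to 13.2 CPM with a median of 1.01. It was at least 5 CPM in 5 members, at least 2 CPM in 18 and at least 1 CPM in 47, and under 1 CPM in the other 44. The ratio of mutant to WT counts per total ranged from 4.99 (95% exact interval 3.18 to 8.25) in Zm00001d021391 to 580 (104 to 22910) in Zm00001d003188. The latter rests on 1 WT count, in WT replicate 2. Without that library the ratio is at least 100-fold, with 3 counts credited to WT, and without WT replicate 3 it is 373. In 88 of the 91 members each mutant library was higher than each WT library, which the limits nearly fix. The same held for 24.7% of the 23529 genes tested, on CPM without TMM factors. The members' count was 89 without thk1-iso15 replicate 3, 89 without thk1-iso17 replicate 3 and 90 without both, alternatives chosen after the data were seen.

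The 3 members whose groups overlapped each had 1 low mutant library. Zm00001d044668 had 0.104 CPM in thk1-iso17 replicate 1, against 0.131 in the highest WT library. Zm00001d002816 had 0.0418 CPM in thk1-iso15 replicate 3, against 0.138 in WT. Zm00001d045546 had no count in thk1-iso17 replicate 3, while thk1-iso17 replicate 2 had 2.53 CPM and the other 4 mutant libraries had 0.503 to 0.710.

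**Figure D2:**
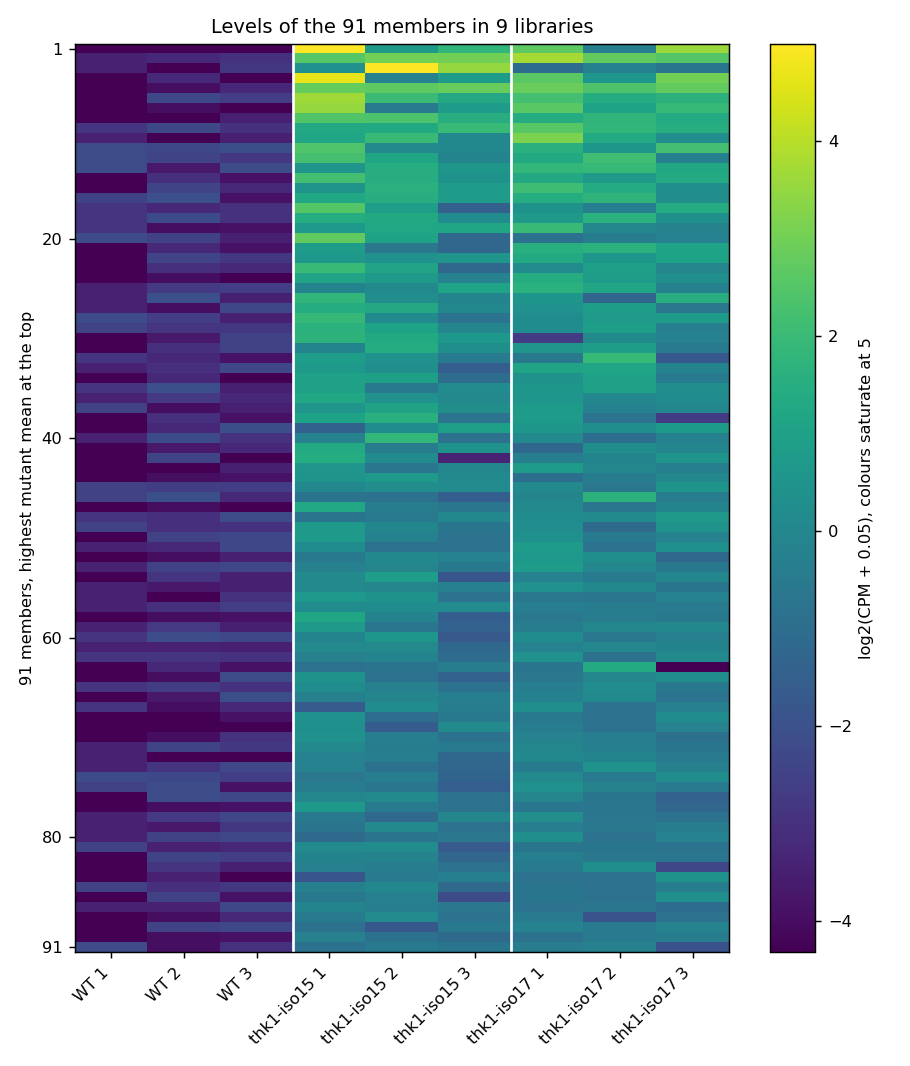
Level of each of the 91 members (rows, ordered by mutant mean) in each library (columns), as log2(CPM + 0.05), with colours saturated at 5. The 3 WT columns are dark throughout, and the mutant columns are lighter, with single bright cells in thk1-iso15 replicates 1 and 2 near the top.

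Levels are given as CPM and not per length of the transcript, so the order of the members is an order of read counts. Member Zm00001d000506 had the most even level. It stood at 0, 0.0138 and 0.0560 CPM in WT replicates 1, 2 and 3. It stood at 6.86, 6.45 and 7.01 CPM in thk1-iso15 and at 7.33, 5.28 and 6.72 CPM in thk1-iso17. The 6 mutant libraries thus lay close together, with a coefficient of variation (SD over mean) of 10.8%, the lowest of the 91. The WT libraries held 4 counts and the mutants 1892, a ratio of 249 (95% exact interval 97.2 to 916). Without WT replicate 3, which held 3 of the 4 counts, it was 641. Without thk1-iso15 replicate 3 the lowest coefficient of variation was that of Zm00001d034521, at 8.62%.

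Zm00001d023964 had 0.0416, 0.0553 and 0.0747 CPM in WT. It had 5.72, 8.34 and 8.06 CPM in the thk1-iso15 libraries and 13.2, 6.72 and 5.70 in those of thk1-iso17. Every mutant library was above 5 CPM, and thk1-iso17 replicate 1 was the highest. The ratio of mutant to WT counts was 145 (95% exact interval 76.0 to 316).

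Zm00001d039432 had no count in WT replicates 1 and 2 and 0.0374 CPM in replicate 3. Its levels were 5.53, 5.05 and 2.76 CPM in the thk1-iso15 libraries and 2.65, 3.39 and 2.56 CPM in those of thk1-iso17. The alleles met at the level of thk1-iso15 replicate 3, and no mutant library was below 2.5 CPM. Its WT libraries held 2 counts in all, and the ratio was 250 (69.1 to 2070). It was 130 without WT replicate 2, and at least 107-fold without WT replicate 3, which held both counts, with 3 counts credited to WT.

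Zm00001d021447 had 0.0832, 0.152 and 0.0747 CPM in WT, 2.42, 2.47 and 3.92 in the thk1-iso15 libraries and 5.90, 3.55 and 2.74 in those of thk1-iso17. Zm00001d003287 had 0.166, 0.0277 and 0.168 CPM in WT, 1.42, 2.77 and 1.48 in the thk1-iso15 libraries and 3.52, 3.71 and 2.33 in those of thk1-iso17. Zm00001d043699 had 0.125, 0.194 and 0.0187 CPM in WT, 2.29, 2.72 and 1.73 in the thk1-iso15 libraries and 2.70, 3.29 and 1.16 in those of thk1-iso17. In these 3 members the alleles overlapped and the 6 mutant libraries stayed within 3 times of each other. After Zm00001d000506 the lowest coefficients of variation were 20.6% in Zm00001d021321 and 21.9% in Zm00001d028182. Both had mutant means under 1 CPM. All 6 mutant libraries were within 2 times of each other in 7 members and within 3 times in 32. Without thk1-iso15 replicate 3 these counts were 14 and 45, and without thk1-iso17 replicate 3 they were 11 and 38. Without both they were 26 and 54.

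**Figure D3:**
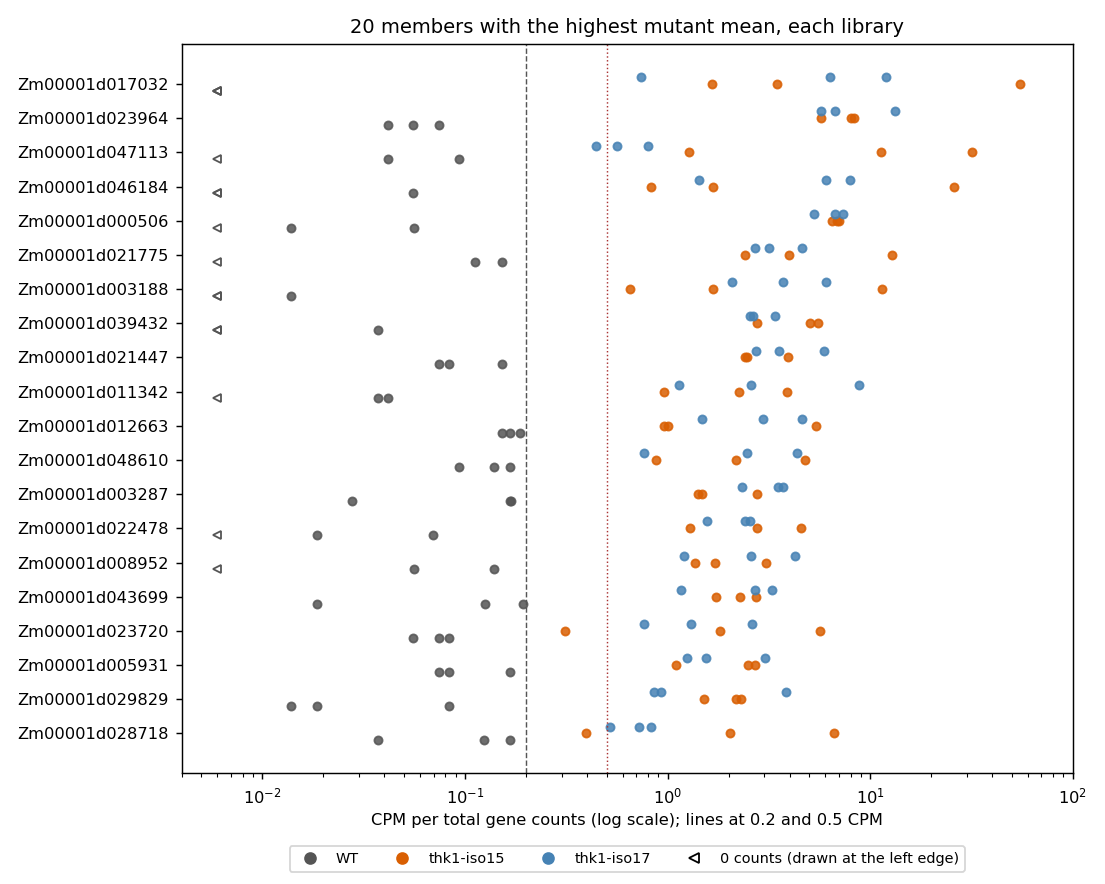
CPM in each library, on a log scale, of the 20 members with the highest mutant mean, with points coloured by genotype, dashed and dotted lines at 0.2 and 0.5 CPM, and triangles at the left edge for libraries with 0 counts. WT points lie left of the dashed line, and the mutant points of Zm00001d000506 fall together while those of Zm00001d017032 and Zm00001d047113 spread over more than 10 times.

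Other members were uneven over the mutant libraries. Zm00001d017032 had 0 counts in every WT library, and its mutant counts were at least 445-fold higher per total when the WT libraries are credited with 3 counts together. The bound was 253-fold without thk1-iso15 replicate 1, which held 1205 of its 2536 mutant counts. It was 231-fold without WT replicate 2 and 286-fold without WT replicate 3. It had 55.1, 1.65 and 3.49 CPM in the thk1-iso15 libraries and 6.31, 0.742 and 12.0 CPM in those of thk1-iso17. The highest library held 74.2 times the level of the lowest. Zm00001d046184 had no count in WT replicates 1 and 3 and 0.0553 CPM in replicate 2. It had 26.0, 0.824 and 1.67 CPM in the thk1-iso15 libraries and 6.07, 1.42 and 7.94 CPM in those of thk1-iso17. Zm00001d003188 had a single count in WT, in replicate 2. It had 11.4, 0.650 and 1.67 CPM in the thk1-iso15 libraries and 6.03, 2.09 and 3.72 CPM in those of thk1-iso17. These 3 members shared the order of their highest libraries, with thk1-iso15 replicate 1 first and thk1-iso17 replicates 1 and 3 next.

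In all, 9 members had those 3 libraries on top in that way, an order picked out after the values were seen. The others were Zm00001d012663, Zm00001d006853, Zm00001d022868, Zm00001d051934, Zm00001d042498 and Zm00001d019409. The share of all genes with that order was not computed. Zm00001d012663 had 0.166, 0.152 and 0.187 CPM in WT, 5.40, 0.999 and 0.960 in the thk1-iso15 libraries and 2.97, 1.48 and 4.62 in those of thk1-iso17. It had the most WT counts of the 91, with 25.

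A level at least 2 times that of every other mutant library was found in 15 members. It was thk1-iso15 replicate 1 in 9 of them, thk1-iso15 replicate 2 in 2, thk1-iso17 replicate 1 in 1 and thk1-iso17 replicate 2 in 3. In thk1-iso15 replicate 1, Zm00001d021775 reached 12.8 CPM against 4.61 in the next library, and Zm00001d028718 reached 6.63 against 2.02. In thk1-iso15 replicate 2, Zm00001d029814 reached 3.52 CPM against 1.06. In thk1-iso17 replicate 1, Zm00001d011342 reached 8.83 CPM against 3.87. In thk1-iso17 replicate 2, Zm00001d007310 reached 3.77 CPM against 1.78, and Zm00001d013311 reached 3.11 against 0.887. The highest level was at least 10 times the lowest in 12 members. It was so in 8 without thk1-iso15 replicate 1 and in 9 without thk1-iso15 replicate 3. The count was 9 without thk1-iso17 replicate 3 and 6 without both replicates 3. Shares over all genes were not computed for the 15 and the 12 members.

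The spread over the 6 mutant libraries was wider in the members with more counts than in other genes of the same band of level. Among the 18 members with a mutant mean of 2 CPM or more the median coefficient of variation was 57.8%. It was 25.3% for the 7650 other nuclear models between 2 CPM and 13.2 CPM, the highest member's mean. For the 29 members between 1 CPM and 2 CPM it was 55.1%, beside 37.1% for 1869 others. For the 44 members under 1 CPM it was 42.1%, beside 44.2% for 1377 others from 0.564 CPM, the lowest member's mean, to 1 CPM. Without thk1-iso15 replicate 3 and thk1-iso17 replicate 3 the members' medians were 45.2%, 52.7% and 35.2% in the same order, beside 20.9%, 32.1% and 38.7% for the others. These medians are a description, as the choice of members set limits on single libraries. In the other genes the median fell from band to band as the level rose. Genes were not matched in level within a band, and 5 of the 18 members had a mean of at least 5 CPM. The part of level in these gaps was not tested.

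The libraries differed in how high the members stood. Summed over the 91, WT replicates 1, 2 and 3 had 4.16, 6.67 and 6.56 CPM. The thk1-iso15 libraries had 260, 164 and 103 CPM, and the thk1-iso17 libraries 163, 126 and 126. For thk1-iso15 the mean sum was 176 ± 78.8 CPM, and for thk1-iso17 it was 138 ± 21.7 (SD, n = 3 each). The ranges of the alleles overlapped. Without thk1-iso15 replicate 3 the thk1-iso15 mean was 212 CPM, and without thk1-iso17 replicate 3 the thk1-iso17 mean was 145 CPM. In thk1-iso15 replicate 1, Zm00001d017032 alone made up 21.2% of the sum. Without that member the sums were 156 ± 52.7 and 132 ± 22.4 CPM (SD, n = 3 each).

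Library thk1-iso15 replicate 1 was the highest of the 6 mutant libraries in 35 members and thk1-iso15 replicate 3 the lowest in 35. The latter was the highest in 1 member only. These counts are on plain CPM, and their share over all genes was not computed. The median member stood at 1.37, 0.999 and 0.647 CPM in thk1-iso15 replicates 1, 2 and 3. It stood at 1.12, 0.923 and 0.852 CPM in thk1-iso17. The library thk1-iso15 replicate 3 also had the largest share of entries not uniquely aligned, at 27.0%, against 16.8% and 19.5% in the other thk1-iso15 libraries, 17.2% to 20.6% in thk1-iso17 and 19.2% to 22.6% in WT. Library thk1-iso15 replicate 1 had the smallest total. The TMM factor was 0.946 in thk1-iso15 replicate 3, the lowest of the mutant libraries, and 1.10 in thk1-iso15 replicate 1. Plain CPM thus sets thk1-iso15 replicate 3 lower beside the other mutant libraries than TMM-scaled CPM does. The part of these measures in the members' levels was not tested.

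**Figure D4:**
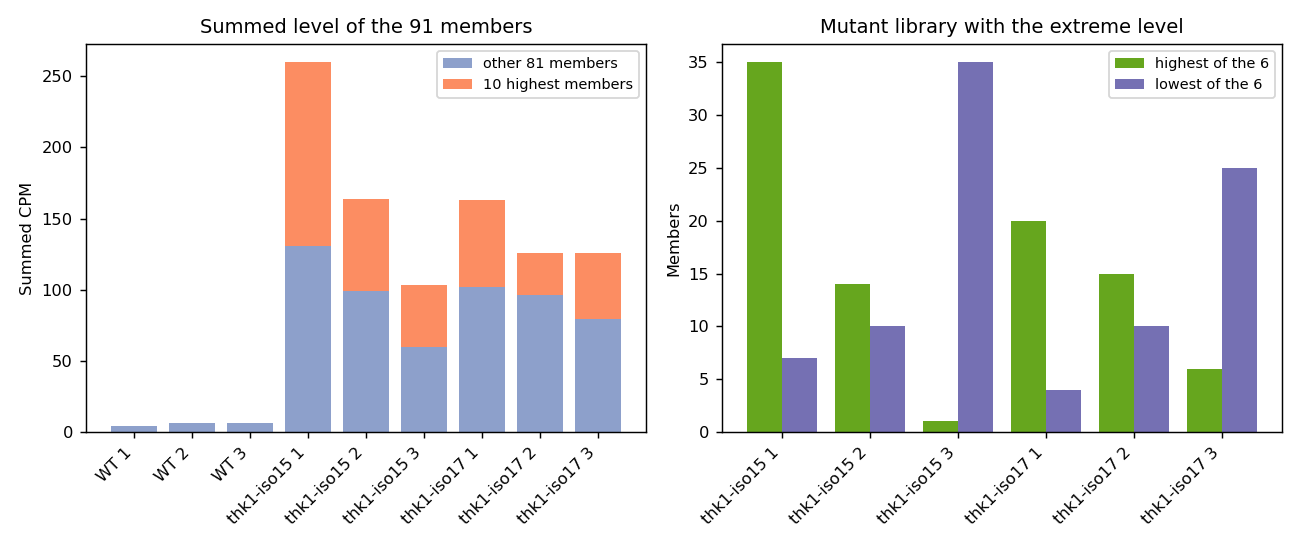
Left, summed CPM of the 91 members in each library, with the 10 members of highest mutant mean stacked on the other 81. Right, on plain CPM, the number of members for which each mutant library was the highest or the lowest of the 6. Library thk1-iso15 replicate 1 was highest in 35, and thk1-iso15 replicate 3 was lowest in 35.

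Members that missed 0.5 CPM in 1 of 6 mutant libraries are counted from the same plain CPM values. These counts are thus no further support for a low level of thk1-iso15 replicate 3, and a share over all genes was not computed. Of the 50 such members, 24 missed the limit in thk1-iso15 replicate 3, 10 in thk1-iso17 replicate 3 and 4 in each of the other 4 libraries. The 24 included Zm00001d023720, Zm00001d028718, Zm00001d025672, Zm00001d043323, Zm00001d040733, Zm00001d037207, Zm00001d002816 and Zm00001d013311. They also included Zm00001d048220, Zm00001d044652, Zm00001d021690, Zm00001d014583, Zm00001d034521, Zm00001d043789, Zm00001d047050 and Zm00001d008359. The remaining ones were Zm00001d021285, Zm00001d042801, Zm00001d032904, Zm00001d002394, Zm00001d027477, Zm00001d005161, Zm00001d037914 and Zm00001d032502. Their levels in that library ran from 0.0418 CPM in Zm00001d002816 to 0.438 CPM in Zm00001d037207 and Zm00001d043789.

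The 10 that missed the limit in thk1-iso17 replicate 3 were Zm00001d007310, Zm00001d011026, Zm00001d040002, Zm00001d045546, Zm00001d024258, Zm00001d021391, Zm00001d036643, Zm00001d035949, Zm00001d015737 and Zm00001d044261. That library had 8.27% of its entries not aligned, against 1.62% to 2.54% in WT, and mitochondrial genes at 1421 CPM, against 121 to 263 in WT. The part of these measures was not tested. In thk1-iso17 replicate 1 the limit was missed by Zm00001d047113, Zm00001d044668, Zm00001d020864 and Zm00001d042554. In thk1-iso17 replicate 2 it was missed by Zm00001d006853, Zm00001d029814, Zm00001d051934 and Zm00001d028693. In thk1-iso15 replicate 1 it was missed by Zm00001d017718, Zm00001d023899, Zm00001d034164 and Zm00001d045247. In thk1-iso15 replicate 2 it was missed by Zm00001d019409, Zm00001d007967, Zm00001d011334 and Zm00001d034702. Zm00001d007967 was, with Zm00001d017032, the other member without a WT count. It had 1.23, 0.275 and 1.04 CPM in the thk1-iso15 libraries and 0.704, 0.522 and 0.832 CPM in those of thk1-iso17.

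The 41 members at 0.5 CPM or more in all 6 mutant libraries comprised 17 of the 20 with the highest mutant mean and 24 others. Of the 17, those not yet described were Zm00001d048610, Zm00001d022478, Zm00001d008952, Zm00001d005931 and Zm00001d029829. Zm00001d048610 had 0.166, 0.138 and 0.0934 CPM in WT, 4.76, 2.17 and 0.877 in the thk1-iso15 libraries and 2.45, 4.37 and 0.769 in those of thk1-iso17. Zm00001d022478 had 0, 0.0692 and 0.0187 CPM in WT, 4.57, 2.75 and 1.29 in the thk1-iso15 libraries and 2.40, 1.56 and 2.56 in those of thk1-iso17. Zm00001d008952 had 0, 0.138 and 0.0560 CPM in WT, 1.37, 3.05 and 1.71 in the thk1-iso15 libraries and 4.27, 2.59 and 1.21 in those of thk1-iso17. In each of these 3 members the alleles overlapped. Zm00001d029829 had 0.0832, 0.0138 and 0.0187 CPM in WT, 1.51, 2.30 and 2.17 in the thk1-iso15 libraries and 3.84, 0.923 and 0.852 in those of thk1-iso17.

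The 24 others had mutant means from 0.690 CPM in Zm00001d023213 to 1.72 CPM in Zm00001d005928. Between 1 CPM and this level stood Zm00001d051932, Zm00001d030841, Zm00001d030698, Zm00001d023443, Zm00001d035803, Zm00001d029696, Zm00001d048202, Zm00001d051525, Zm00001d029613, Zm00001d049085, Zm00001d006793 and Zm00001d022868. Below 1 CPM stood Zm00001d037759, Zm00001d042498, Zm00001d003368, Zm00001d003186, Zm00001d027489, Zm00001d052117, Zm00001d031202, Zm00001d039643, Zm00001d021321 and Zm00001d028182.

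The comparison of thk1-iso17 with thk1-iso15 had no part in the choice of members beyond the demand for 5 of 6 mutant libraries. That demand kept out genes silent in every library of 1 allele, so it may lower the number of members called. The comparison was tested. All 91 members were among the 23529 genes tested. No member was called between the alleles (edgeR quasi-likelihood test, p adjusted by Benjamini-Hochberg across the whole table, threshold 0.05), where 26 genes, or 0.111% of those tested, were. At an unadjusted p under 0.05 stood 6 members, which is 6.59% of them, beside 6.88% of all genes tested. DESeq2 called 1 member, beside 190 of the 33773 genes given to it, or 0.563%. Any genes that it left without an adjusted p are within that total. The median log2 difference, thk1-iso17 minus thk1-iso15, was -0.18 over the members and 0.02 over all genes tested, and 35 of the 91 members were positive beside 52.8% of all genes. The median size of the difference was 0.41 on the log2 scale in the members and 0.20 over all genes. The median standard error was 0.58 against 0.25, so differences of the usual size were not detectable here with 3 libraries per allele.

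By mean CPM, 49 members were higher in thk1-iso15 and 42 in thk1-iso17. Without thk1-iso15 replicate 1 the balance turned, with 29 higher in thk1-iso15 and 62 in thk1-iso17. Both balances are on plain CPM, where all genes tested leaned to thk1-iso17, as the last shares of this paragraph show. In the fit with TMM factors and all libraries, 35 of the 91 were higher in thk1-iso17. The share of all genes in these balances was not computed, and the part of scaling in the turn was not tested. On TMM-scaled CPM the 3 libraries of each allele did not overlap in 8 members, beside 11.1% of the genes tested. All 3 thk1-iso15 libraries were above all 3 thk1-iso17 libraries in 6 of the 8, beside 5.59% of the genes tested. The opposite held in the other 2, beside 5.48%. On plain CPM the split was 5 higher in thk1-iso15, beside 1.68% of the genes tested, and 4 higher in thk1-iso17, beside 12%.

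The member that came nearest to a call between the alleles was Zm00001d047113. It had 0.0416, 0 and 0.0934 CPM in WT replicates 1, 2 and 3. It had 1.28, 31.8 and 11.3 CPM in thk1-iso15, and 0.444, 0.803 and 0.561 CPM in thk1-iso17. Every thk1-iso15 library was above every thk1-iso17 library, and the thk1-iso15 libraries spread over more than 10 times among themselves. Its thk1-iso17 minus thk1-iso15 difference came to -4.77 on the log2 scale (SE 0.93, edgeR adjusted p = 0.155). It passed by DESeq2 (adjusted p = 0.0138), by edgeR without a filter on low counts (0.00593) and by edgeR without thk1-iso15 replicate 1 (0.00372). Over all other alternatives run for it the edgeR adjusted p ranged from 0.107 to 0.471.

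The next by p was Zm00001d028718, with 6.63, 2.02 and 0.397 CPM in the thk1-iso15 libraries against 0.522, 0.722 and 0.832 in those of thk1-iso17 (log2 difference -2.18, SE 0.77, edgeR adjusted p = 0.613). Zm00001d025672 had 1.74, 0.600 and 0.376 CPM in the thk1-iso15 libraries and 2.87, 3.07 and 2.06 in those of thk1-iso17 (log2 difference 1.52, SE 0.57, edgeR adjusted p = 0.648). Its WT libraries held 5 counts in all. Zm00001d044668 had 3.20, 2.47 and 1.52 CPM in the thk1-iso15 libraries and 0.104, 1.02 and 0.832 in those of thk1-iso17 (log2 difference -1.98, SE 0.76, edgeR adjusted p = 0.664). The alleles did not overlap in the last 2, but neither passed the test.

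**Figure D5:**
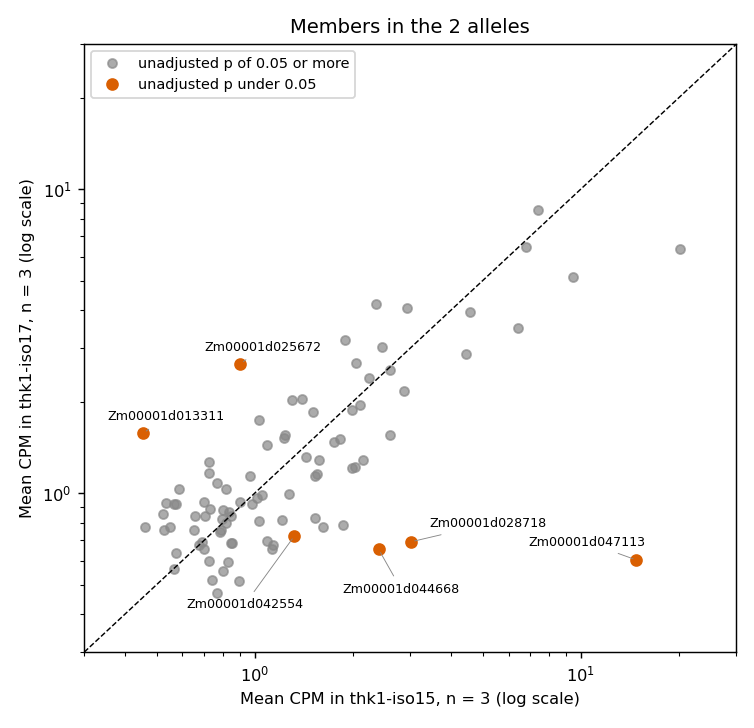
Mean CPM of each of the 91 members in thk1-iso15 (horizontal, log scale) and thk1-iso17 (vertical, log scale), with equal levels on the dashed line. The 6 members at an unadjusted p under 0.05 are named, and Zm00001d047113, at 14.8 and 0.602 CPM, lies farthest from the line.

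Zm00001d identifiers are numbered, and members with near numbers were looked for as a description of their order, without positions on a chromosome. Runs with steps of at most 5 numbers held 6 members, in 3 pairs, and the median step between members was 392 numbers. The count for a random draw of genes was not computed. The pair Zm00001d003186 and Zm00001d003188 differed in level, with mutant means of 0.925 and 4.26 CPM. The model numbered between them, Zm00001d003187, is not a member. It had 0, 0 and 0.0187 CPM in WT, 1.01, 0.0250 and 0.125 in the thk1-iso15 libraries and 0.431, 0.381 and 1.08 in those of thk1-iso17. Its lowest mutant library, thk1-iso15 replicate 2, was not low in Zm00001d003186, at 0.899 CPM, but was the lowest mutant library of Zm00001d003188.

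In the pair Zm00001d005928 and Zm00001d005931, the first had 1.51, 1.27 and 1.40 CPM in the thk1-iso15 libraries and 2.57, 1.48 and 2.06 in those of thk1-iso17. The second had 2.70, 2.50 and 1.11 CPM in the thk1-iso15 libraries and 1.55, 3.03 and 1.25 in those of thk1-iso17. Both models numbered between them had 0 counts in all 9 libraries. The third pair, Zm00001d051932 and Zm00001d051934, had no model numbered between them in the files and had mutant means of 1.68 and 0.990 CPM. Whether reads of near-identical copies or overlapping models were divided between the members of a pair was not determined here.

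Genes numbered beside the members stood close to all other genes in their difference from WT. Of tested non-members within 5 numbers of a member there were 430. Their median log2 difference, mutants minus WT, was 0.06 (quartiles -0.28 and 0.47), beside 0.02 (quartiles -0.32 and 0.44) over the 23213 tested nuclear models other than members. These differences are from the fit with TMM factors. On plain CPM each mutant library was higher than each WT library in 26.7% of these neighbours, beside 24.6% of the others. Plain CPM sets the mutants higher beside WT than TMM-scaled CPM does, and these shares were not computed on TMM-scaled CPM.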

How the data were processed

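Each deposited file holds the raw gene counts of 1 library, with 46430 identifiers and 5 summary lines that were kept out of totals and tests. Per the submitters' processing notes the tools were HTSeq 0.11.1, StringTie 1.3.6, SAMtools 1.9 and HISAT2 2.1.0, with the build B73 RefGen_v4. How they were set, which annotation was counted and whether strand was used is not given in the sources at hand, so counts of overlapping, antisense or near-identical genes are uncertain. Genes took 52.9% to 66.5% of the entries of a library.

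CPM was a count divided by the gene counts of its library and scaled to a common total. Counts were tested in R 4.3.3 with edgeR 4.0.16 (filterByExpr, TMM factors, glmQLFit and glmQLFTest, 3 genotypes, 9 libraries), for thk1-iso17 against thk1-iso15 only. The pipeline was tested on simulated data. Standard errors are the log2 difference divided by the square root of F. Ratios of pooled counts have exact binomial intervals. Alternatives were RLE and upper quartile factors, DESeq2 1.42.0, no filter, a filter of 1 CPM in 3 libraries, the 6 mutant libraries alone, a replicate block, leaving out each library, and other limits for members.

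Members and lists were chosen with earlier results of these data known. Members are named by a rule: the 20 with the highest mutant mean, those called between the alleles, those next to a limit, the 3 most even and the 3 most uneven, and runs of identifiers. As none was called between the alleles, the 4 with the smallest p are given there, chosen after their values were seen. The remaining members are listed by identifier. Marker genes were looked for by symbol in the RefSeq gene table and could not be paired with identifiers of the files.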

Additional observations from a re-analysis of the deposited data

Results flagged for a closer look

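Entries outside the gene counts of nuclear models stood above the highest WT library by more than 15% in 2 mutant libraries. In thk1-iso17 replicate 3, 8.27% of entries were not aligned, where WT had 1.62% to 2.54%. In the same library mitochondrial genes stood at 1421 CPM, where WT had 121 to 263. In thk1-iso15 replicate 3, 27.0% of entries were not uniquely aligned, where WT had 19.2% to 22.6%.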

How the results depend on the processing

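The count of 91 genes was 64 with TMM-scaled CPM, 42 with a WT limit of 0.1 CPM and 484 with 0.5 CPM, 20 with a mutant limit of 1 CPM and 307 with 0.25 CPM, and 41 when all 6 mutant libraries had to reach the limit. With every library thinned to 21871601 counts it was 102, of which 66 were members. Leaving out 1 library gave 101 to 147. Between the alleles 26 genes were called, 190 by DESeq2, 75 without a filter on low counts and 17 with the 6 mutant libraries alone. When a library was left out, 21 to 72 genes were called, with 41 without thk1-iso15 replicate 1. The count was 72 without thk1-iso15 replicate 3 and 31 without thk1-iso17 replicate 3, with 0 members called in each. The members called were 0, and 1 by DESeq2, 1 without the filter and 0 to 1 when a library was left out, each time Zm00001d047113. With the replicate block 33 genes and 0 members were called. Whether the numbers pair the libraries was not settled. Of 9 same-numbered pairs, 3 had deviations correlated over 0.1. Of 9 libraries, 6 correlated best with their own number, more than an even draw among the other genotypes' libraries gives on average. The main test treats the libraries as unpaired. The summed levels of the members moved by less than 1 SD under all 15 alternatives run for them. Most of these could not show more. Leaving out 1 of 3 libraries cannot move their mean by 1 SD, and the highest member had 0 counts in WT. The thk1-iso15 mean was 134 CPM without thk1-iso15 replicate 1 and 212 CPM without thk1-iso15 replicate 3. Depth limits the WT level most in WT replicate 1, where 41 members had 0 counts and a count of 0 allows 0.125 CPM.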
